A study of Mus musculus with 12 samples.

Results

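Rbm38 and Puf60 without exon 5 were compared at stretches of RNA where both proteins had a listed iCLIP cluster. A pair consisted of 1 Rbm38 cluster and 1 Puf60 cluster on the same chromosome and the same inferred strand, each being the other's largest overlap (at least 1 nt). This gave 16078 pairs, out of 49260 clusters listed for Rbm38 and 39454 listed for Puf60 without exon 5, and out of 124941 clusters listed over the 3 tables of the series. The pairs were chosen by position, and no log2 fold or p-value entered the choice. The name Puf60 alone stands here for the form without exon 5.

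iCLIP (individual-nucleotide resolution crosslinking and immunoprecipitation) fixes a protein to the RNA it touches with ultraviolet light, pulls the protein down and sequences the attached RNA fragments. The cells were N2A, a mouse neuroblastoma line, engineered with the Flp-in system to carry a doxycycline-controlled transgene. One line expressed Rbm38 and another Puf60 lacking exon 5, each induced with 1 µg/ml doxycycline for 24 h and crosslinked with 150 mJ/cm2. Each line had 3 libraries precipitated with the anti-Flag antibody M2 and 1 size-matched input, which is lysate RNA of the same gel range without the precipitation. A further line, Puf60 with exon 5, was induced for 48 h in its 3 CLIP libraries and 24 h in its input. It is used here only as a further readout at the same places. All lines therefore carried an induced, tagged protein on top of the cell's own, and every pair sets 1 line against another line.

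Both proteins bind single-stranded RNA through RNA recognition motifs. Puf60 is related to the large subunit of U2AF and takes part in recognising the pyrimidine tract upstream of 3′ splice sites, so much of its known work is in introns. Rbm38 is encoded by a p53 target gene and is known for binding AU- and U-rich elements, often in 3′ untranslated regions, where it affects the stability or translation of messages such as that of p53, and also for roles in splicing.

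The deposited tables give the authors' comparison of CLIP with input for each cluster, and a cluster is called enriched here where the deposited adjusted p is under 0.05. They give no value per library, so the spread between the 3 CLIP libraries is unknown and no test between the proteins was possible. Differences are therefore described by their size, and 95% Wilson intervals cover counting error over pairs only; pairs of 1 gene share its RNA and are not replicates. Among the matched clusters, 9146 of 16078 were enriched for Rbm38 (56.9%, 56.1 to 57.6), against 50.9% in the whole Rbm38 table. For Puf60 5193 were enriched (32.3%, 31.6 to 33.0), against 36.1% in the whole Puf60 table. The matched clusters thus held a higher enriched share than the rest of the table for Rbm38 (48.0% of unmatched clusters) and a lower one for Puf60 (38.7% of unmatched clusters).

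The sequence could be read at only 102 pairs, those lying inside the windows of 250 bases before to 50 bases after annotated gene starts that the reference provides (RefSeq, GRCm38.p6). The annotated start was not always the 5′ end of the gene named below. That end was 260225 nt away at Gse1, 2500 at Morf4l2, 2375 at Zbtb18, 2300 at Lipe and 885 at Eif4e. The windows at Rpl22 and Fam189b were those of 9430083M05Rik and Gm16069. The 102 sites do not stand for the other pairs. A few are printed 5′ to 3′ on the strand of the clusters, with the longest run of pyrimidines in capitals, or, for Lipe, the run of A. They include sites enriched for Rbm38 alone, shown because their Rbm38 values were high.
Lipe (chr7:25396152-25396181, minus strand): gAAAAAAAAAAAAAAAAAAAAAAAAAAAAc
Rpl22 (chr4:152325851-152325880, plus strand): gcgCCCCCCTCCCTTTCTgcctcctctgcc
Eif4e (chr3:138527051-138527080, plus strand): TTTTTTTTTTTTTggaagaaaaaaaaaaac
In the authors' deposited tables the log2 folds at these places were 4.81 for Rbm38 and -1.02 for Puf60 at Lipe, which encodes hormone-sensitive lipase. Rpl22, a ribosomal protein gene, had 3.84 for Rbm38 and -1.39 for Puf60, and Eif4e, which encodes the cap-binding translation factor, had 4.54 for Rbm38 and 0.11 for Puf60 in the authors' deposited tables.

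Sites enriched for both proteins are shown for their long pyrimidine runs, of 16, 29 and 17 bases.
Suz12 (chr11:79993121-79993150, plus strand): gctcggaggagacaCTTTTTTTTTTTCCTC
Gse1 (chr8:120488707-120488736, plus strand): gCTCCCCCTCCTTTTTTTTTTTTTTTTTTT
Morf4l2 (chrX:136741152-136741181, minus strand): tagatgaTTTCCTCTTTTCTTCTTgactta
The log2 folds in the authors' deposited tables were 2.59 for Rbm38 and 3.05 for Puf60 at Suz12, a Polycomb repressive complex gene. At Gse1 they were 1.503 for Rbm38 and 4.21 for Puf60, and at Morf4l2 1.65 for Rbm38 and 1.29 for Puf60, in the authors' deposited tables. Sites enriched for Puf60 alone are shown by the following windows, with pyrimidine runs of 16 and 8 bases. Both runs are longer than the class median of 6 bases. Over all 102 windows the median was 7 bases.
Fam189b (chr3:89184407-89184436, plus strand): cctcagaTCTCTTTCTTCTCCTTgctttcg
Zbtb18 (chr1:177444718-177444747, plus strand): ctttgcatctgTCTCTCTTagtctgctttt
Their log2 folds in the authors' deposited tables were -0.56 for Rbm38 and 2.24 for Puf60 at Fam189b, and -0.05 for Rbm38 and 2.28 for Puf60 at Zbtb18, which encodes a zinc finger repressor. A run of at least 10 pyrimidines was found at 3 of 20 windows enriched for Rbm38 alone, 8 of 16 enriched for both, 3 of 11 enriched for Puf60 alone and 13 of 55 enriched for neither, which is 26.5% of the 102. A run of at least 8 A was found at 3 of the 20 windows enriched for Rbm38 alone and at none of the other windows. With so few windows these are counts at these sites, and no comparison is drawn from them.

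Most pairs that were enriched at all were enriched for 1 protein and not for the other. Such a split also depends on how often each was called, 56.9% of matched clusters for Rbm38 and 32.3% for Puf60. It does not by itself show a division of sites between the proteins. Whether the calls of the 2 proteins were related was not tested. Rbm38 alone was enriched at 6572 pairs (40.9%, 40.1 to 41.6), both proteins at 2574 (16.0%, 15.5 to 16.6), Puf60 alone at 2619 (16.3%, 15.7 to 16.9) and neither at 4313 (26.8%, 26.1 to 27.5). At the pairs enriched for Rbm38 alone, the median log2 fold was 2.39 for Rbm38 and -0.44 for Puf60 in the authors' deposited tables. At the pairs enriched for Puf60 alone, it was 0.04 for Rbm38 and 2.01 for Puf60. Low values for the other protein are part of how these classes are defined. At the pairs enriched for neither, the medians were similar, 0.0 for Rbm38 and -0.42 for Puf60. Puf60 had a log2 fold under 0 at 4839 of the 6572 pairs enriched for Rbm38 alone (73.6%). Rbm38 had one under 0 at 1220 of the 2619 pairs enriched for Puf60 alone (46.6%). These 2 shares are not on 1 scale, as the median over all listed clusters was 1.04 for Rbm38 and 0.11 for Puf60.

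**Figure D1:**
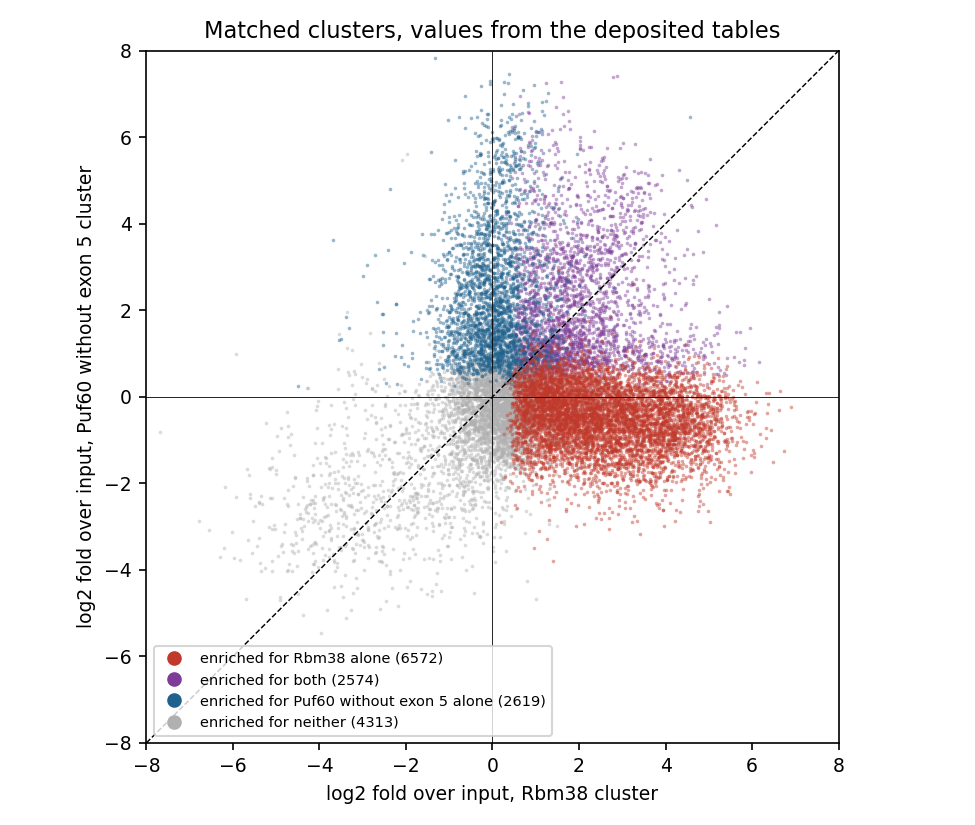
Log2 fold over input of the Rbm38 cluster (x axis) against that of the matched Puf60 without exon 5 cluster (y axis), 1 point per pair, coloured by enrichment class; the dashed line marks equal values. The 6572 pairs enriched for Rbm38 alone run out along the x axis and the 2619 enriched for Puf60 alone along the y axis, with 2574 shared pairs between them.

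Among the pairs enriched for both proteins, the 2 log2 folds showed little relation to each other. Over the 2574 pairs enriched for both, the median log2 fold was 1.87 for Rbm38 and 1.80 for Puf60, from the authors' deposited tables. Across these pairs, Pearson's r between the log2 folds was -0.03 and Spearman's rho -0.006. It was 0.07 over the 1294 shared pairs whose clusters had the same start and end. These are descriptions over pairs, each table having its own input. Selecting pairs enriched in both tables limits the range of both values. The coefficients therefore do not tell how the 2 proteins relate over all pairs. Among shared pairs 1229 (47.7%) had log2 folds within 1 of each other, 264 were more than 2 higher for Rbm38 and 332 more than 2 lower.

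Over all pairs, the log2 fold of Rbm38 minus that of Puf60 had a median of 0.92 (quartiles -0.65 and 2.59, SD over pairs 2.49). The tables themselves were not centred alike: the median log2 fold of all listed clusters was 1.04 for Rbm38 and 0.11 for Puf60, a shift of 0.93. With each table centred on its own median, the median difference over pairs was -0.016, so the overall excess of Rbm38 is the size of the shift between the tables, and differences below are best read against it. The spread was wide in both directions. Of the 11765 pairs enriched for at least 1 protein, 4903 (41.7%) were more than 2 higher for Rbm38, 1727 (14.7%) more than 2 lower, and 2318 (19.7%) within 1. For scale, 95% of the pairs enriched for neither lay between -2.37 and 2.53.

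Class and adjusted p need care at some pairs. At 156 pairs a p-value was missing in either table. These pairs were kept, and a cluster without an adjusted p counted as not enriched. At 707 of the 2619 pairs enriched for Puf60 alone (27.0%), the authors' deposited table gives Rbm38 a p-value under 0.05 beside an adjusted p that misses the threshold. The same held for Puf60 at 486 of the 6572 pairs enriched for Rbm38 alone (7.40%). With the deposited p-values adjusted anew by the Benjamini-Hochberg method, the share of shared pairs was 22.1%, against 16.0%.

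The widest differences with Rbm38 higher, 1 pair per gene, lay almost all at the very end of the gene. Grn, which encodes the secreted lysosomal protein progranulin, led with a log2 fold of 6.50 for Rbm38 (chromosome 11, 102436651 to 102436800) and -1.51 for Puf60 (102436751 to 102436800) in the authors' deposited tables. Uba2, a subunit of the SUMO-activating enzyme, had 5.02 for Rbm38 (chromosome 7, 34140786 to 34141285) and -2.90 for Puf60 (34140886 to 34141035) in the authors' deposited tables. Mgat4b, a glycosyltransferase gene, had 5.98 for Rbm38 and -1.73 for Puf60 in the authors' deposited tables. Puf60 was below its input at these pairs, which choosing the widest differences favours.

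Genes of mitochondria, ribosomes and chromatin were among the next. The authors' deposited tables gave Atp5l, an ATP synthase subunit gene, 5.44 for Rbm38 and -2.17 for Puf60, over the same 100 nt (chromosome 9, 44913286 to 44913385). Rpl39l, a ribosomal protein paralogue, had 5.42 for Rbm38 and -2.18 for Puf60, and H2az1, the gene of the histone variant H2A.Z, had 5.47 for Rbm38 and -2.08 for Puf60 in the authors' deposited tables. Chchd2, which encodes a mitochondrial protein, had 6.05 for Rbm38 and -1.38 for Puf60 over 1 shared extent (chromosome 5, 129881186 to 129881435) in the authors' deposited tables. The Puf60 value was below -1 in each. Rpl39l has near-identical relatives, between which the mapping could have divided reads, so its value is uncertain.

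Neuronal and signalling genes completed this set. Chgb, which encodes chromogranin B of neuroendocrine secretory granules, had 4.76 for Rbm38 and -2.65 for Puf60 in the authors' deposited tables. Rac1, which encodes a small GTPase, had 4.87 for Rbm38 and -2.49 for Puf60, and Trip12, which encodes a ubiquitin ligase, 5.60 for Rbm38 and -1.75 for Puf60 in the authors' deposited tables. Measured from the middle of the pair, the annotated 3′ end of the gene was 27 nt away at Mgat4b, 33 at Grn, 88 at Atp5l, 128 at Chgb, 150 at Chchd2, 246 at H2az1, 264 at Uba2, 330 at Rac1 and 335 at Rpl39l. Trip12 was the exception at 3172 nt. For Mgat4b, Chchd2 and Rac1 the strand, and so the end measured from, was known from the clusters alone.

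The widest differences with Puf60 higher were not confined to gene ends. Frmd4a, a gene of a scaffold protein for cell polarity, had -1.04 for Rbm38 (chromosome 2, 4610851 to 4610900) and 6.40 for Puf60 (4610801 to 4611050) in the authors' deposited tables. Trpm3, a cation channel gene, had -3.69 for Rbm38 and 3.63 for Puf60 in the authors' deposited tables. At Trpm3 much of the width came from a low Rbm38 value.

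At the remaining widest pairs with Puf60 higher, the Rbm38 value lay between -1.42 and 0.26. Fubp1, which encodes a single-stranded nucleic acid-binding protein of the far upstream element family, had 0.26 for Rbm38 and 7.28 for Puf60 in the authors' deposited tables, the highest Puf60 value of this set. Mast2, a microtubule-associated kinase gene, had -0.06 for Rbm38 and 7.22 for Puf60, and Ppp1r12a, which encodes a myosin phosphatase subunit, had -0.77 for Rbm38 and 6.48 for Puf60 in the authors' deposited tables. Nxf3, of the nuclear RNA export factor family, had -1.42 for Rbm38 and 5.65 for Puf60, and Tspan3, a tetraspanin gene, -0.35 for Rbm38 and 6.46 for Puf60 in the authors' deposited tables. Dip2c had -0.50 for Rbm38 and 6.44 for Puf60, and Rnf165, a ubiquitin ligase gene, -0.27 for Rbm38 and 6.62 for Puf60 in the authors' deposited tables. Agap1, which encodes a GTPase-activating protein for Arf, had 0.26 for Rbm38 and 6.99 for Puf60 in the authors' deposited tables. The 10 pairs lay between 1651 nt (Rnf165) and 411056 nt (Agap1) from the 3′ end. The Ppp1r12a pair was at the other end of its gene, 117759 nt from the 3′ end of a gene of 117894 nt.

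Pairs with high values for both proteins were chosen by the smaller of the 2 log2 folds. Slc35a3, a Golgi nucleotide-sugar transporter gene, headed them with 4.26 for Rbm38 (chromosome 3, 116672886 to 116673085) and 3.85 for Puf60 (116672986 to 116673035) in the authors' deposited tables. Actg1, the cytoplasmic gamma-actin gene, had 3.997 for Rbm38 and 3.70 for Puf60, and Huwe1, a large ubiquitin ligase gene, had 3.70 for Rbm38 and 3.94 for Puf60 in the authors' deposited tables. Pabpn1, which encodes the nuclear poly(A)-binding protein, had 3.55 for Rbm38 and 3.71 for Puf60 over 1 stretch of 50 nt (chromosome 14, 54898601 to 54898650) in the authors' deposited tables. Fubp1 appeared here again, with a second pair at 4.07 for Rbm38 and 3.61 for Puf60 in the authors' deposited tables. Mamdc2, Asah1, Zfp871, Cdk5rap2 and Prune2 made up the rest.

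**Figure D2:**
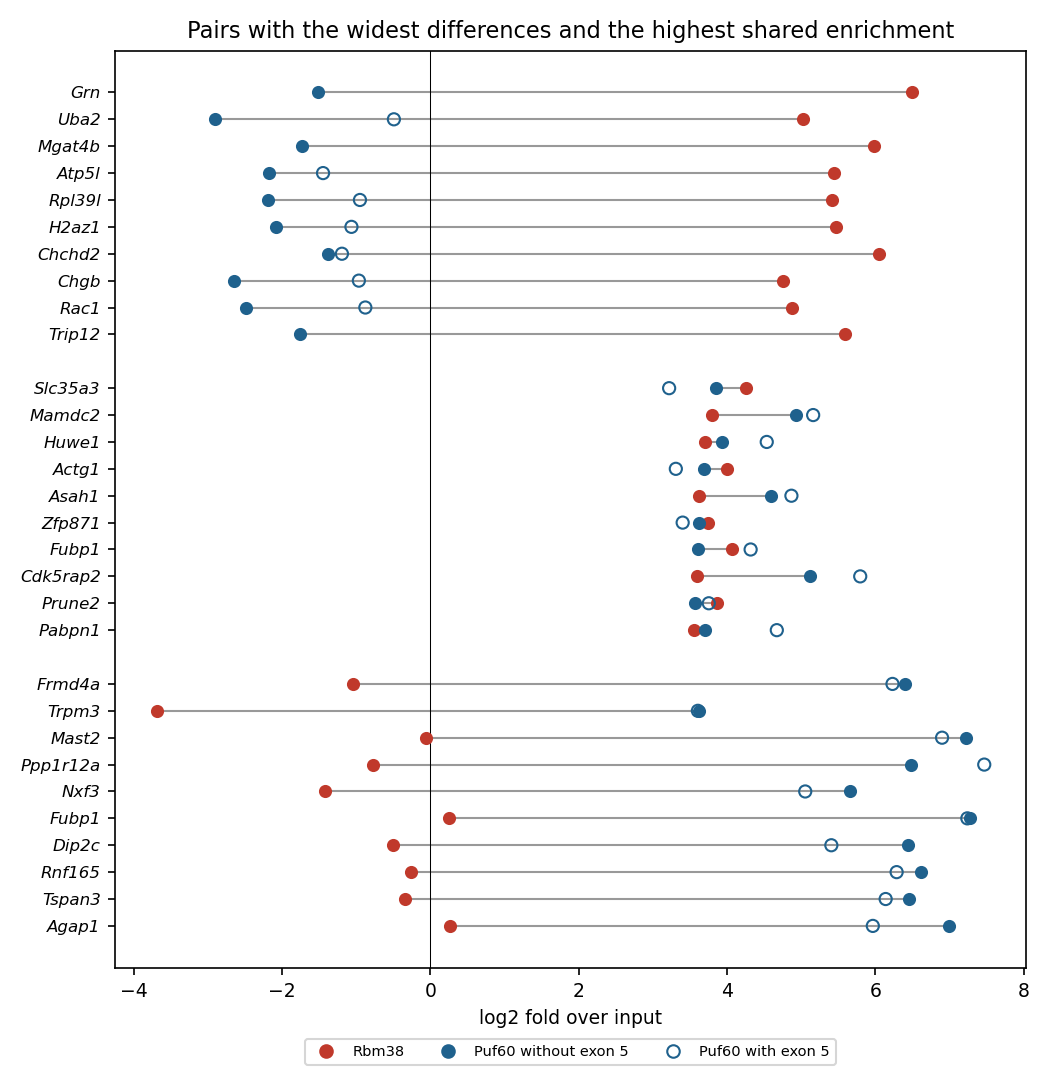
Log2 fold over input at the 10 pairs with the widest difference with Rbm38 higher (top), the 10 with the highest shared enrichment (middle) and the 10 with the widest difference with Puf60 higher (bottom); each line joins the values of 1 pair, and open circles give Puf60 with exon 5 where it had a cluster. In the top group the Rbm38 values exceed 4 and the Puf60 values are below -1; in the bottom group all Puf60 values exceed 3 and the highest Rbm38 values are 0.26, at Fubp1 and Agap1.

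Position along the gene separated the classes. In 11052 pairs lying in 1 protein-coding gene on its strand, the pairs enriched for Rbm38 alone lay within 2000 nt of the annotated 3′ end in 2913 of 4999 cases (58.3%, 56.9 to 59.6). Shared pairs did so in 598 of 1803 (33.2%, 31.0 to 35.4), pairs enriched for Puf60 alone in 262 of 1916 (13.7%, 12.2 to 15.3) and pairs enriched for neither in 423 of 2334 (18.1%, 16.6 to 19.7). The median distance to the 3′ end was 1425 nt for Rbm38 alone, 4266 nt for both and 9949 nt for Puf60 alone. The genes themselves were of like size, with medians of 32244 nt for Rbm38 alone, 29868 nt for both and 31153.5 nt for Puf60 alone.

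The same order appeared with each gene body divided into 10 equal parts. The part at the 3′ end held 63.3% of the pairs enriched for Rbm38 alone, 34.7% of the shared pairs, 12.7% of those enriched for Puf60 alone and 14.4% of those enriched for neither. At the other end, 4.96% of the pairs enriched for Rbm38 alone lay within 2000 nt of the annotated 5′ end, against 8.32% of shared pairs, 12.1% for Puf60 alone and 17.5% for neither. The reference gives gene bodies without exons, so 3′ untranslated regions, coding exons and introns were not separated.

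Up to 20000 nt from the 3′ end, the Rbm38 median was lower and the Puf60 median higher with each step in distance. Within 500 nt of the 3′ end (1728 pairs), the median log2 fold was 3.13 for Rbm38 and -0.51 for Puf60, and 78.6% of pairs were enriched for Rbm38 alone. At 2000 to 5000 nt it was 1.25 for Rbm38 and 0.21 for Puf60, and at 5000 to 20000 nt 0.59 for Rbm38 and 0.72 for Puf60, the Puf60 median being the higher there. In that range 22.1% of pairs were enriched for Rbm38 alone and 29.6% for Puf60 alone. Beyond 100000 nt the medians were 0.97 for Rbm38 and -0.20 for Puf60 over 727 pairs, but the 10 genes with most pairs weigh on the far ranges. Without them the medians at 20000 to 100000 nt were 0.52 for Rbm38 and 0.60 for Puf60, with a median difference of -0.23 in place of 0.01. Beyond 100000 nt, 406 pairs were left, with 0.78 for Rbm38 and 0.11 for Puf60, and the median difference was 0.47 in place of 1.06.

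**Figure D3:**
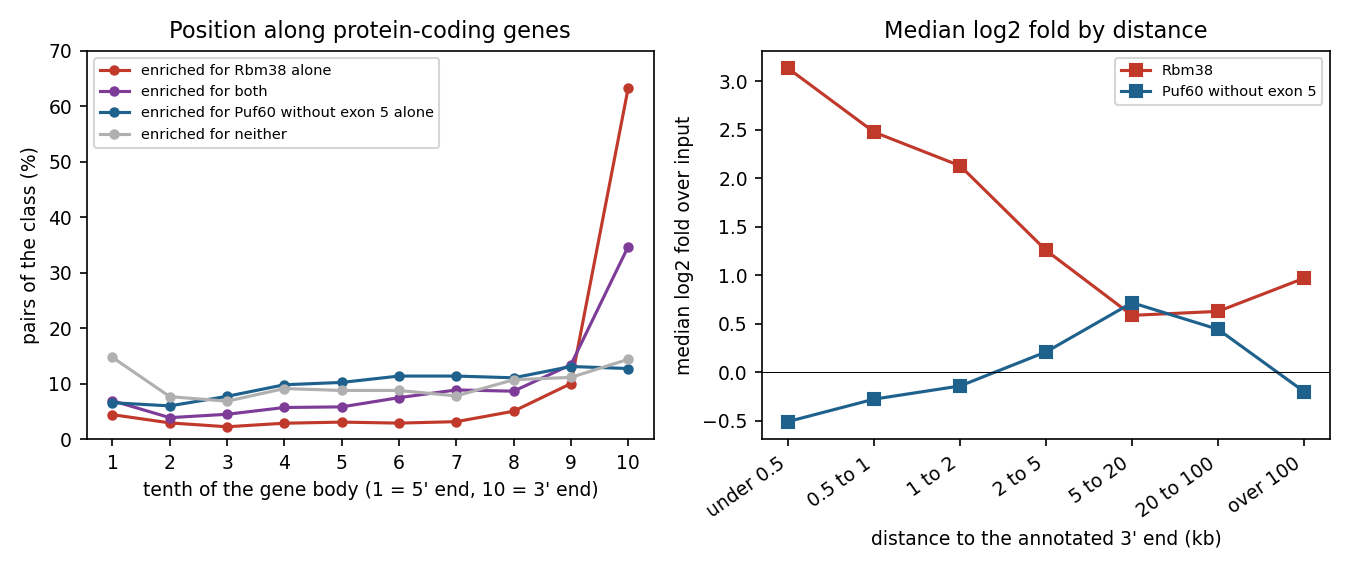
Left, share of the pairs of each class (%) in each of 10 equal parts of protein-coding gene bodies, from the 5′ end (1) to the 3′ end (10); right, median log2 fold over input of the matched clusters by distance to the annotated 3′ end, for Rbm38 and Puf60 without exon 5. The part at the 3′ end holds 63.3% of the pairs enriched for Rbm38 alone and 12.7% of those enriched for Puf60 alone. The Puf60 median exceeds that of Rbm38 at 5 to 20 kb, with neither table centred.

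Being matched went with the gene end for both proteins. Enriched Rbm38 clusters lay within 2000 nt of the 3′ end in 51.6% of 6802 matched and 39.0% of 13174 unmatched cases. Enriched Puf60 clusters did so in 23.1% of 3719 matched and 11.1% of 7141 unmatched cases. Most enriched Puf60 clusters, matched or not, lay elsewhere.

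The pairs fell in 3901 genes, 2028 of which had 1 pair and 695 at least 5. Of the 3901 genes, 2084 had pairs enriched for Rbm38 alone and none for Puf60 alone, 480 the opposite, 532 both kinds, and 805 neither kind. Within a gene the difference varied more than between genes: among genes with at least 5 pairs, its SD was 1.86 within genes and 1.499 between gene means. Differences of both signs occurred in 550 of the 695 genes, whereas all pairs favoured Rbm38 in 132 and Puf60 in 12. These counts were made without removing the shift of 0.93 between the tables, which favours Rbm38.

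Where 1 gene held both kinds of pair, the division between them mostly followed the gene's direction. In 493 protein-coding genes with both kinds and a known strand, the pairs enriched for Rbm38 alone were nearer the 3′ end than those for Puf60 alone in 417 (84.6%, 81.1 to 87.5), by their medians per gene. The median distance in these genes was 1488.5 nt for Rbm38 alone and 10658 nt for Puf60 alone.

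The gene of a bait was 1 of them. Puf60 itself held 2 pairs, and the authors' deposited tables gave the one 79 nt from its 3′ end (chromosome 15, 76070236 to 76070335 for Rbm38) 4.43 for Rbm38 and -0.39 for Puf60. The other, 2429 nt from the end (76072586 to 76072635 for Rbm38), had -0.25 for Rbm38 and 2.83 for Puf60 in the authors' deposited tables. Transgene and endogenous reads cannot be separated there. The Rbm38 gene held no pair.

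The widest spans between the kinds within a gene showed the same arrangement on a larger scale. In Tspan3, the authors' deposited tables gave 4.56 for Rbm38 and -0.11 for Puf60 at 102 nt from the 3′ end, and -0.35 for Rbm38 and 6.46 for Puf60 at 8377 nt. In Mtdh, which encodes the membrane protein metadherin, the pair 61 nt from the end had 4.14 for Rbm38 and -1.72 for Puf60, and the pair 26311 nt away had -0.03 for Rbm38 and 5.00 for Puf60 in the authors' deposited tables. In Fads2, a fatty acid desaturase gene, the values were 3.997 for Rbm38 and -0.84 for Puf60 at 571 nt, and -1.07 for Rbm38 and 4.67 for Puf60 at 23996 nt, in the authors' deposited tables. In each of these genes the site enriched for Rbm38 alone was the one nearer the gene end.

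Efna5, which encodes an ephrin ligand of axon guidance, had 4.42 for Rbm38 and -0.88 for Puf60 at 154 nt, and -1.10 for Rbm38 and 4.92 for Puf60 at 189254 nt, in the authors' deposited tables. Tiprl, a regulator of protein phosphatase 2A, had 4.19 for Rbm38 and -0.51 for Puf60 at 2900 nt, and -0.15 for Rbm38 and 5.93 for Puf60 at 20975 nt, in the authors' deposited tables. G3bp2, a stress granule protein gene, had 3.36 for Rbm38 and -1.72 for Puf60 at 2516 nt, and -0.41 for Rbm38 and 4.94 for Puf60 at 20866 nt, in the authors' deposited tables. Trip12 followed the same order, and so did Dip2c, where both pairs were far from the end, 335502 nt for Rbm38 alone and 347452 nt for Puf60 alone. Frmd4a ran the other way: the pair enriched for Rbm38 alone was 157717 nt from the 3′ end and that for Puf60 alone 3167 nt away. Prex2 was also selected, but its pairs lay on opposite strands and the strand of the gene was unknown.

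A few genes held very many pairs. Pcbp3, which encodes a poly(C)-binding protein, had 160, Map1b, which encodes a microtubule-associated protein, 141, Samd5 113, Ankrd11, a chromatin regulator gene, 73, Huwe1 66 and Efna5 61. In Map1b 87 pairs were enriched for Rbm38 alone and 7 for Puf60 alone, with median log2 folds over its pairs of 1.52 for Rbm38 and -0.45 for Puf60 in the authors' deposited tables. Huwe1 was the opposite, with 3 pairs enriched for Rbm38 alone and 35 for Puf60 alone, and medians of -0.37 for Rbm38 and 1.28 for Puf60 in the authors' deposited tables. The pairs enriched for Rbm38 alone in Map1b were not at the gene end: their median distance was 61497 nt, and in Samd5 380300 nt, in Efna5 232904 nt and in Ankrd11 130365 nt. In these genes the pairs crowded into long stretches with moderate Rbm38 values, as medians of 1.79 in Map1b and 1.49 in Samd5 show for the pairs enriched for Rbm38 alone.

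**Figure D4:**
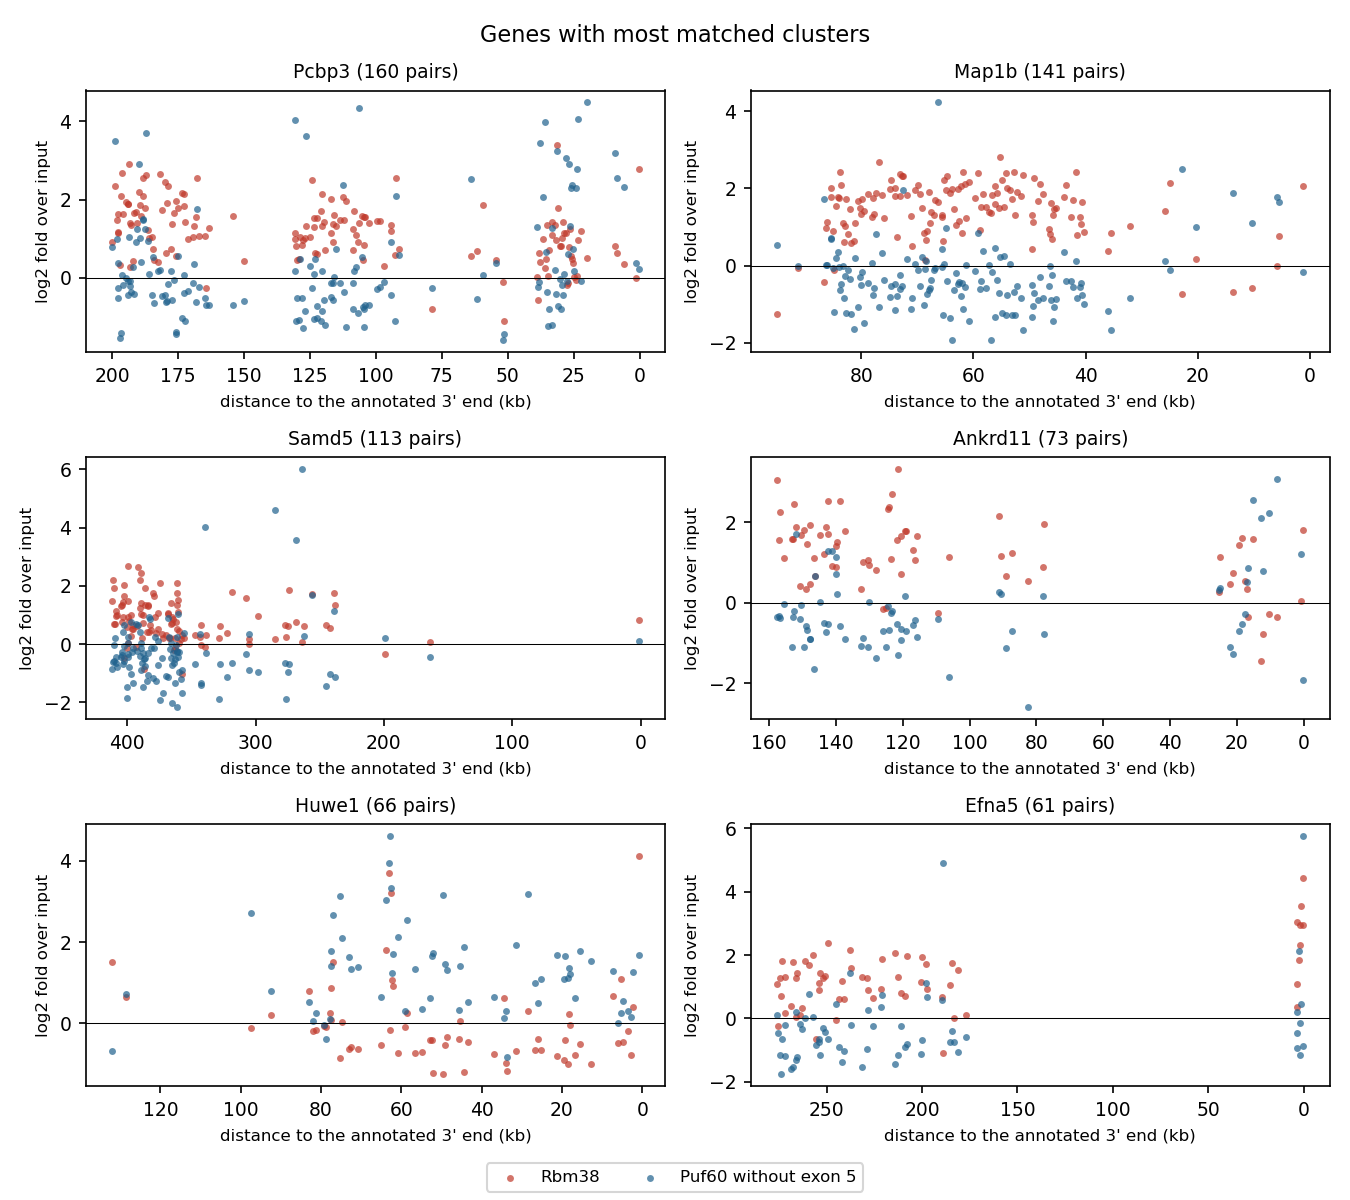
Log2 fold over input of the matched clusters (y axis) by distance to the annotated 3′ end (x axis, kb, with the 3′ end at the right) in the 6 genes with most pairs; red points are Rbm38, blue points Puf60 without exon 5. Map1b shows Rbm38 above Puf60 over most of its 141 pairs, Huwe1 shows Puf60 above Rbm38 over most of its 66, and Efna5 has a group of high Rbm38 values at its 3′ end.

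Racgap1, a cytokinesis regulator gene, had 53 pairs with 21 enriched for Rbm38 alone and 16 for Puf60 alone, and Cbx7, a Polycomb gene, 44 with 10 and 9. Hdnr, a long noncoding RNA gene, had 41 with 7 for Rbm38 alone and 9 for Puf60 alone. Gnas, the imprinted gene of a stimulatory G protein subunit, had 39 with 6 for Rbm38 alone and 11 for Puf60 alone. In each of these 4 genes, fewer than 50% of the pairs were enriched for Rbm38 alone and fewer than 50% for Puf60 alone.

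Among genes with at least 5 pairs, the median difference per gene ranged from -3.80 to 5.18, with 306 of 695 genes above 1 and 96 below -1. Here too the shift between the tables was not removed. The highest were Ppp1r15b, a regulator of eIF2α dephosphorylation, at 5.18, Tfrc, the transferrin receptor gene, at 4.70, Fam168b at 4.56, Slc16a1, the lactate transporter gene, at 4.53, Calu at 4.52 and Actr3, an Arp2/3 subunit gene, at 4.49. In each of these 6 genes every pair was enriched for Rbm38 alone, 5 to 7 pairs a gene. Tfrc had median log2 folds of 2.88 for Rbm38 and -1.74 for Puf60 in the authors' deposited tables. The Tfrc message is known for iron-responsive elements in its 3′ untranslated region.

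The lowest median differences belonged to genes of varied function. Dtx3, a ubiquitin ligase gene, had a median difference of -3.80, with all 6 pairs enriched for Puf60 alone, and Dlg4, which encodes the postsynaptic scaffold PSD-95, -3.25. Atxn2l, which encodes an ataxin-2-like RNA-binding protein, had -3.16 with 15 of 18 pairs enriched for Puf60 alone, and Eftud2, the gene of a U5 snRNP GTPase, -3.08 with all of its 7. Aup1 had -3.01, Nop56, a box C/D snoRNP gene, -2.96, and Nxf3 -2.96. Next were Srrm2, a splicing coactivator gene, at -2.89 with 13 of 20 pairs enriched for Puf60 alone, and U2af2, the gene of the U2AF large subunit, at -2.84. For Srrm2 the median log2 fold was -0.43 for Rbm38 and 2.26 for Puf60 in the authors' deposited tables. These genes were ranked after their values were seen, and no test stands behind the order.

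Gene lists give the wider view. Over the 12365 pairs in 1 gene, 44.2% were enriched for Rbm38 alone, 16.2% for both, 17.4% for Puf60 alone and 22.1% for neither, and the median difference was 1.07. The lists below are described against these figures.

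The pairs in 3 lists of splicing factor genes had lower median differences and smaller shares enriched for Rbm38 alone. SR protein genes, whose products bind exonic enhancers, held 140 pairs in 14 of 16 genes, 33 enriched for Rbm38 alone (23.6%) and 43 for Puf60 alone (30.7%), with a median difference of -0.18. Relative to all pairs in 1 gene this median was -1.25, and -0.52 when an overlap of at least 50% of both clusters was asked for. Genes of 3′ splice site recognition held 68 pairs in 14 of 20 genes, 19 for Rbm38 alone (27.9%) and 21 for Puf60 alone (30.9%), with a median difference of 0.08. Counted by gene the 3′ splice site list looked otherwise: 11 of its 14 genes had a median difference above 0 (78.6%), against 73.3% of the 3901 genes, and 6 held pairs enriched for Rbm38 alone and none for Puf60 alone. Of the SR protein genes 8 of 14 had a median above 0 (57.1%). The hnRNP genes, whose products package nascent RNA, held 444 pairs in 28 of 31 genes, with 26.8% for Rbm38 alone, 29.7% for both and 22.1% for Puf60 alone, and a median difference of 0.45. Pcbp3 held 160 of these pairs, and without it 20.4% of 284 pairs were enriched for Rbm38 alone, 38.7% for both and 27.5% for Puf60 alone.

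Among the named members of all lists that held both kinds of pair, the widest pair enriched for Rbm38 alone was nearer the 3′ end than that for Puf60 alone in 34 of 40 genes. The exceptions were Pcbp3, Map1b, Rpl12, Hsp90b1, Canx and Ankrd11. In Pcbp3, for instance, the pairs lay 196707 nt from the end for Rbm38 alone and 20057 nt for Puf60 alone. In Rbm39, a U2AF-related coactivator gene, the authors' deposited tables gave 3.79 for Rbm38 and 0.70 for Puf60 at 297 nt from the 3′ end, and 0.04 for Rbm38 and 4.52 for Puf60 at 31722 nt. In Srsf11 they gave 4.50 for Rbm38 and -0.29 for Puf60 at 546 nt, and 0.91 for Rbm38 and 5.26 for Puf60 at 12771 nt, also from the authors' deposited tables. In U2af2 a pair at 194 nt was shared, with 3.25 for Rbm38 and 1.29 for Puf60, and a pair at 11569 nt was enriched for Puf60 alone, with -0.23 for Rbm38 and 4.64 for Puf60 in the authors' deposited tables. Ptbp2, a neuronal splicing repressor gene, had a shared pair over a wide cluster, with 3.04 for Rbm38 and 3.78 for Puf60 in the authors' deposited tables.

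Genes of 3′ end processing had the highest share of shared pairs among the 14 lists. They held 53 pairs in 8 of 20 genes, 34 of them shared (64.2%), 10 enriched for Rbm38 alone and 4 for Puf60 alone, with medians of 1.72 for Rbm38 and 1.77 for Puf60. Cpsf6 alone held 36 of these pairs and 27 of the shared ones, and without it 7 of 17 pairs were shared (41.2%) and 8 were enriched for Rbm38 alone (47.1%). The genes involved include Cpsf6 and Cpsf7, cleavage factor I subunits, Pabpn1, and Papola, the poly(A) polymerase gene. In Cpsf6 the authors' deposited tables gave a shared pair 3.94 for Rbm38 and 1.19 for Puf60, and a pair enriched for Puf60 alone -0.07 for Rbm38 and 3.39 for Puf60. At 273 nt from the 3′ end of Papola they were 4.17 for Rbm38 and -0.01 for Puf60 in the authors' deposited tables.

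Regulators of AU-rich and neuronal messages had a median difference of 1.31 over 114 pairs in 21 of 29 genes, with 44.7% enriched for Rbm38 alone, 26.3% for both and 17.5% for Puf60 alone. Without Fubp1, which held 15 of the shared pairs, 58.6% of 87 pairs were enriched for Rbm38 alone and 17.2% for both. Celf1, a gene of a GU-rich element-binding protein, had 5.31 for Rbm38 and -0.59 for Puf60 at 321 nt from its 3′ end in the authors' deposited tables. Elavl1, which encodes HuR, had 3.33 for Rbm38 and -0.18 for Puf60 at one pair, and 0.72 for Rbm38 and 2.20 for Puf60 at a shared one, in the authors' deposited tables. Elavl4, which encodes the neuronal HuD, had 4.42 for Rbm38 and 0.80 for Puf60 at a shared pair 99 nt from the end, and -0.53 for Rbm38 and 3.97 for Puf60 at 2974 nt, in the authors' deposited tables.

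The p53 pathway and reported Rbm38 targets were few. They held 16 pairs in 7 of 22 genes, 13 of them enriched for Rbm38 alone, 1 shared and 2 for Puf60 alone, with a median difference of 2.30. Mdm2, which encodes the p53 ubiquitin ligase, had 3.78 for Rbm38 and -0.51 for Puf60 at 86 nt from the 3′ end in the authors' deposited tables. Hmga1, a chromatin architecture gene, had 3.60 for Rbm38 and -1.22 for Puf60 at 46 nt in the authors' deposited tables. Bax, a gene of apoptosis, had 3.39 for Rbm38 and -0.24 for Puf60 at 66 nt, and -0.00 for Rbm38 and 4.83 for Puf60 at 4641 nt, in the authors' deposited tables.

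Cytoskeletal and mitochondrial lists stood above the splicing lists, but not all stood apart from all pairs in 1 gene. Relative to these, the median difference was 0.78 for microtubule-associated and growth cone genes. It was only 0.04 for tubulins and actins and 0.13 for ATP synthase and respiratory chain genes. Microtubule-associated and growth cone genes held 206 pairs in 18 of 28 genes, 58.3% enriched for Rbm38 alone and 5.83% for Puf60 alone, with a median difference of 1.85, and Map1b supplied 141 of these pairs. Without Map1b, 33 of 65 pairs were enriched for Rbm38 alone (50.8%) and 5 for Puf60 alone (7.69%). Tubulin and actin genes held 82 pairs in 17 of 21 genes, 46.3% for Rbm38 alone and 4.88% for Puf60 alone, with a median difference of 1.11. Nuclear-encoded ATP synthase and respiratory chain genes held 95 pairs in 31 of 38 genes, 48.4% for Rbm38 alone, 12.6% for Puf60 alone and 35.8% for neither, with a median difference of 1.21.

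In Map1b the Rbm38-alone pair with the widest difference was 51097 nt from the 3′ end and the Puf60-alone one 22822 nt. Atp5a1, an ATP synthase subunit gene, had 4.34 for Rbm38 and -2.66 for Puf60 at 468 nt, and -0.17 for Rbm38 and 1.51 for Puf60 at 3743 nt, in the authors' deposited tables. Marcks, which encodes an actin-crosslinking membrane protein, had 3.11 for Rbm38 and -2.25 for Puf60 at 1618 nt, and Dpysl2, a growth cone collapse mediator gene, 3.11 for Rbm38 and -2.07 for Puf60 at 47 nt, in the authors' deposited tables. In Actg1 the authors' deposited tables held all 3 kinds within 2809 nt of gene: 2.74 for Rbm38 and -1.99 for Puf60 at 449 nt, the shared pair at 1774 nt, and -0.33 for Rbm38 and 2.32 for Puf60 at 2424 nt.

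Ribosomal protein and translation factor genes had lower median differences than all pairs. Cytosolic ribosomal protein genes held 396 pairs in 80 of 81 genes, 29.3% enriched for Rbm38 alone, 10.4% for both, 20.2% for Puf60 alone and 40.2% for neither, with a median difference of 0.41. Rps24 held the highest of the Rbm38 values named here, 6.65 for Rbm38 and 0.13 for Puf60 over 1 shared extent (chromosome 14, 24495751 to 24495850) in the authors' deposited tables. A second Rps24 pair had 0.20 for Rbm38 and 2.76 for Puf60 in the authors' deposited tables. Translation factor genes held 203 pairs in 28 of 29 genes, 32.5% for Rbm38 alone and 27.6% for Puf60 alone, with a median difference of 0.22. In Eif4g2, which encodes a cap-independent initiation factor, the authors' deposited tables gave 4.85 for Rbm38 and -1.01 for Puf60 at 4376 nt, and -1.13 for Rbm38 and 2.96 for Puf60 at 8276 nt.

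Chaperone genes had a median difference of 0.34 over 207 pairs, with 29.5% enriched for Rbm38 alone and 21.7% for Puf60 alone. Hsp90b1, the endoplasmic reticulum Hsp90 gene, had 5.18 for Rbm38 and 0.53 for Puf60 at a shared pair 170 nt from the end, and 0.52 for Rbm38 and 3.44 for Puf60 at 7570 nt, in the authors' deposited tables. Chromatin regulator genes, at 0.94 over 177 pairs, had 40.1% for Rbm38 alone and 19.8% for Puf60 alone. Without Ankrd11 both shares were 30.8%, over 104 pairs. Long noncoding RNA and snoRNA host genes had a median difference of 0.29 over 77 pairs in 12 of 25 genes, with 24.7% for Rbm38 alone and 20.8% for Puf60 alone. Without Neat1, the paraspeckle RNA gene, the shares were 10.7% for Rbm38 alone and 28.6% for Puf60 alone over 56 pairs. Kcnq1ot1, an imprinted antisense transcript, had 3.35 for Rbm38 and 0.19 for Puf60 at one pair and 0.65 for Rbm38 and 4.23 for Puf60 at another in the authors' deposited tables.

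**Figure D5:**
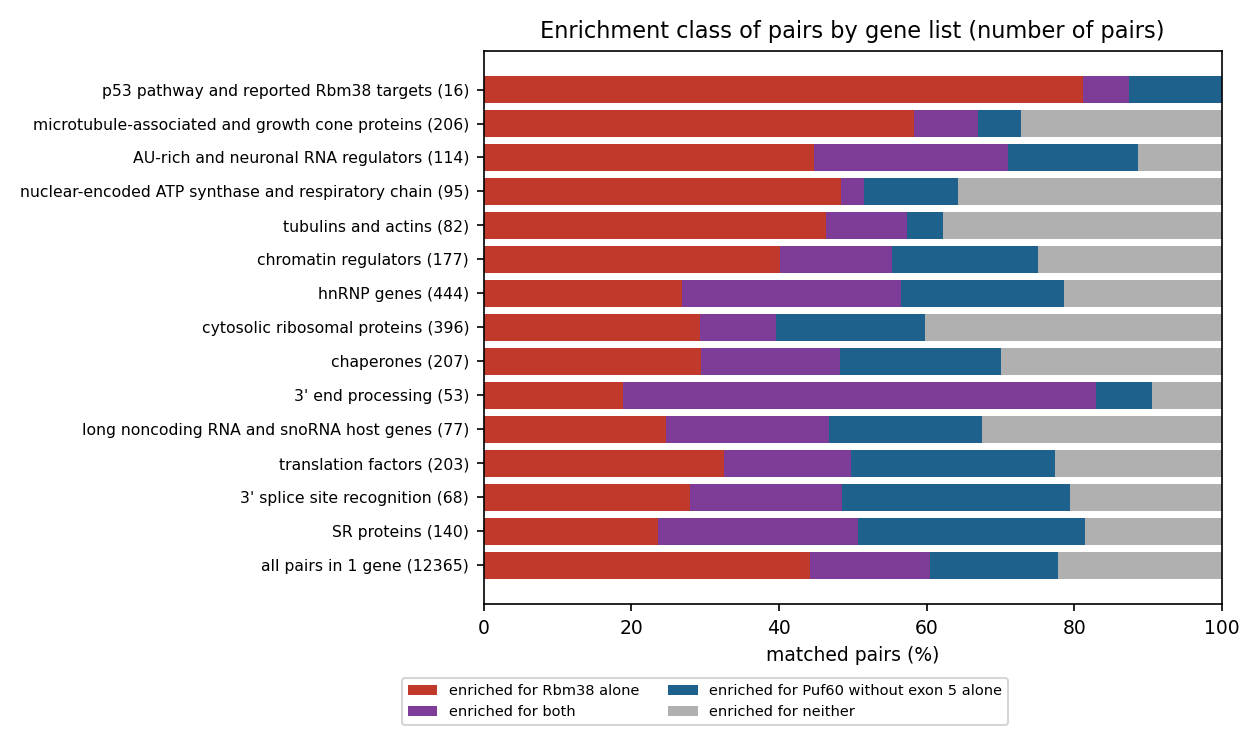
Share of matched pairs (%) in each enrichment class for 14 gene lists, with the number of pairs in brackets, ordered by the median difference of Rbm38 minus Puf60 from high (top) to low, and all pairs in 1 gene as the last bar. Pairs enriched for Rbm38 alone make up 81.3% of the p53 list and 23.6% of the SR protein list, and shared pairs make up 64.2% of the 3′ end processing list.

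Small RNA genes behaved differently from messages. Of 577 pairs in them, 504 (87.3%) were enriched for neither protein. The 243 pairs in snoRNA genes included 237 enriched for neither, with median log2 folds of -3.27 for Rbm38 and -2.86 for Puf60 in the authors' deposited tables. All 18 mitochondrial pairs were enriched for neither, with medians of -1.21 for Rbm38 and -2.79 for Puf60 in the authors' deposited tables. These RNAs were thus mostly more frequent in the inputs than in the CLIP libraries of either protein.

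Enriched pairs in small RNA genes were mostly in tRNA and snRNA genes. Of 164 tRNA pairs 41 were enriched for Rbm38 alone, a smaller share than the 40.9% of all pairs, 2 for Puf60 alone and 120 for neither (73.2%), and the median log2 fold over all tRNA pairs was -0.47 for Rbm38 and -1.91 for Puf60 in the authors' deposited tables. The widest was an alanine tRNA gene, n-TAtgc11 (chromosome 13, 21240951 to 21241000), with 4.82 for Rbm38 and -2.01 for Puf60 in the authors' deposited tables. Of 116 pairs in snRNA genes 1 was enriched for Rbm38 alone, 13 for Puf60 alone (11.2%, against 16.3% of all pairs) and 101 for neither (87.1%), with medians of -1.19 for Rbm38 and -0.66 for Puf60 in the authors' deposited tables. The widest was Gm25587 (chromosome 10), with -2.72 for Rbm38 and 3.29 for Puf60 in the authors' deposited tables. Both kinds of gene come in near-identical copies, so the gene to which a cluster belongs is uncertain.

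Pairs outside genes, 2119 in all, were enriched for Rbm38 alone in 30.4% and for Puf60 alone in 14.7%. Of those enriched for Rbm38 alone, 125 of 644 (19.4%, 16.5 to 22.6) lay within 5000 nt downstream of the annotated 3′ end of a protein-coding gene on the same strand. The share was 4.85% of 371 shared pairs, 7.69% of 312 for Puf60 alone and 7.32% of 792 for neither. A further 887 pairs lay antisense to the only gene at their place.

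The table of Puf60 with exon 5, which the matching did not use, gives a further look at the same places. Where it held an overlapping cluster, that cluster was enriched at 493 of 4262 pairs enriched for Rbm38 alone (11.6%, 10.6 to 12.6), against 39.1% of that whole table. At shared pairs it was enriched at 1963 of 2245 (87.4%, 86.0 to 88.7), and at pairs enriched for Puf60 alone at 1874 of 2173 (86.2%, 84.7 to 87.6). At pairs enriched for neither, the cluster with exon 5 was enriched at 297 of 3013 (9.86%). Both low shares belong to classes in which Puf60 without exon 5 was not enriched by definition. A low share was therefore not particular to the pairs enriched for Rbm38 alone. The median log2 folds with exon 5 were -0.20 at pairs for Rbm38 alone, 2.25 at shared pairs and 2.18 at pairs for Puf60 alone, from the authors' deposited table. At pairs enriched for neither, the median with exon 5 was -0.45 in the authors' deposited table. Isoform and induction time cannot be told apart in this comparison. Among named pairs, Ppp1r12a had 7.47 with exon 5, and Grn, Mgat4b and Trip12 had no cluster with exon 5 at their widest pair, in the authors' deposited table.

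The identity of the line could be checked only through which genes were read. Of 13 neuroblastoma genes, 8 had a cluster in either table and 7 a pair, among them Map1b, Ncam1, Hand2 and Stmn2. Of 7 genes of blood, endothelium, liver, skin, glia or connective tissue, 3 had a cluster. Only 1 of the 7, Pecam1, held pairs, 2 on opposite strands. The share of all genes with a cluster is not given here, so these few counts do not settle the identity of the line. A cluster only shows that RNA from the place was read. Hand2, a transcription factor gene of sympathetic neurons, had a shared pair with 3.35 for Rbm38 and 3.16 for Puf60 in the authors' deposited tables. Ncam1, a neural adhesion molecule gene, had 4.13 for Rbm38 and -1.74 for Puf60 at 107 nt from its 3′ end in the authors' deposited tables.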

How the data were processed

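Per the labels' protocols, iCLIP libraries and size-matched inputs were made from N2A lines. The tools TopHat and edgeR and the builds NCBIM37 and mm10 come from the submitters' processing notes, with no roles. Cluster calling, any collapsing of random bases, and the way replicates and inputs were compared are not described by the sources available. For every cluster the authors deposited a log2 fold, read as CLIP over input from its column name, and a p-value, raw and adjusted; per-library values and depth are unknown, and 0 further columns hold values. Whether the 3 CLIP libraries came from separate cultures is not stated. Per the labels, Rbm38 libraries 1 and 3 share a reverse transcription primer, as do Rbm38 library 2 and the Rbm38 input.

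The members, gene lists and tests were chosen with earlier results of these data known. Starts fall on a grid of 50 nt; an offset of 0 was read as plus and 35 as minus. In protein-coding genes with a reference strand, 94.3% of 78443 clusters lay on it. Equal overlaps were broken by the lowest start. A pair went to the gene body (GRCm38.p6) holding its middle; a gene's strand came from the reference or, failing that, from at least 3 clusters with 80% on 1 strand. The strand rests on clusters alone for 1996 of the 11052 pairs in the position comparison (18.1%), and for Mgat4b, Chchd2, Rac1, Nxf3, Rnf165, Mamdc2, Asah1, Mtdh, Puf60, U2af2, Pcbp3, Eif4g2, Marcks, Dpysl2, Atp5a1, Hdnr and Ncam1 among the genes named. Where both were known they were the same in 95.4% of 3689 coding genes. Enriched means a deposited adjusted p under 0.05. Coordinates are 1-based on mm10.

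Genes were named by a rule: among named genes, the 10 widest differences each way, 1 pair a gene, in a pair enriched for the higher protein; the 10 highest shared pairs by the smaller log2 fold; the 10 genes with most pairs; the 10 widest spans within a gene; up to 4 members of each list; and the bait genes. A few genes chosen this way are left unreported. Genes ranked by their median difference, tRNA and snRNA genes and the printed sequences were chosen after their values were seen. The matching was tested on simulated intervals. Python 3.11.15 with pandas 2.3.3, numpy 2.4.6 and matplotlib 3.10.9, and scipy, was used.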

Additional observations from a re-analysis of the deposited data

How the results depend on the processing

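No paired analysis was possible because the tables hold comparisons and no value per library; leaving out a library was impossible for the same reason. Of 95 alternative values 2 reversed, 25 moved, and 68 counted as unchanged. Unchanged shares, medians and gene list values kept their direction and lay within the interval of the reported value. Counts of genes and pairs lay within 1.5 times of it. For the named pairs with the widest differences only the direction was compared, which the shift of 0.93 between the tables could not reverse. Centring could not change the gene list values either, as they are relative to all pairs in 1 gene. The following shares and medians moved, unless said otherwise. Rbm38 alone made up 38.8% of pairs with an overlap of at least 50%, 37.5% with identical extents, 45.5% with p-values adjusted anew and 39.6% with a log2 fold above 1 also required. Shared pairs made up 15.1% with identical extents, 14.8% at an adjusted p under 0.01, 22.1% adjusted anew and 10.4% with the log2 fold limit. Puf60 alone made up 15.3% with identical extents, 13.7% adjusted anew and 15.6% with the log2 fold limit. The median difference was 0.81 with 50% overlap, 0.73 with identical extents and 0.76 without log2 fold and p values shared by 20 or more clusters, and it reversed to -0.016 with each table centred. Within 2000 nt of the 3′ end lay 55.6% of pairs for Rbm38 alone with 50% overlap. In genes of at least 10000 nt the shares were 53.3% for Rbm38 alone, 26.8% for both and 8.08% for Puf60 alone. With a window of 1000 nt they were 41.3%, 19.8% and 6.52% in the same order of classes, and with 5000 nt 75.4%, 52.97% and 32.7%. Genes with a reference strand, an alternative chosen after seeing the data, gave 58.4%, 33.2% and 13.4%, which counted as unchanged. Tubulins and actins, 0.04 above all pairs in 1 gene, reversed to -0.0076 with 50% overlap. Some of the 68 unchanged values still differed in size. Relative to all pairs in 1 gene, and with 50% overlap, SR protein genes were at -0.52 in place of -1.25, ATP synthase and respiratory chain genes at 0.37 in place of 0.13, and chromatin regulators at -0.03 in place of -0.13. Genes with both kinds of pair, also counted as unchanged, numbered 440 in place of 532. Puf60 with exon 5 was enriched at 89.1% of shared pairs with 50% overlap, a share that had moved. The causes were not tested. Of the 16078 pairs, 12060 were left without log2 fold and p combinations shared by 20 or more clusters. Such repeated values can arise from few reads, which was not tested. Depth is unknown, so whether a given value near 0 reflects few reads cannot be told.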
